A study of Homo sapiens with 20 samples.

Results

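The genes described here are 8 kallikreins, KLK5, KLK6, KLK7, KLK8, KLK10, KLK11, KLK13 and KLK14, and 2 serine protease inhibitors, SPINK5 and SPINK6. They were chosen by name, through their Ensembl identifiers, and make up 10 of the 57500 genes listed in every library. RNA was sequenced from NTERT cells, an established line of human keratinocytes made immortal with hTERT. WT cells had received a control sgRNA. GCN2KO cells were edited with CRISPR/Cas9 at EIF2AK4, the gene of the eIF2 kinase GCN2, and were a pool of edited cells rather than 1 clone, used within 6 passages. In HDW (high-density wounding) pipet tips cut a grid of scratches into a confluent monolayer, and RNA was collected 6 h later, while unwounded cultures were left intact. By the study's description of this assay, monolayers of both genotypes were held in 2 mM calcium chloride and 2% serum for 36 h before wounding to start differentiation. The study's results text gives a longer time of differentiation before HDW. Each of the 4 groups, WT and GCN2KO with and without HDW, had 5 replicates, which makes 20 libraries. Nothing in the labels says whether replicates were cultured on separate days, so p-values measure the spread between these cultures only.

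Kallikreins are secreted trypsin- or chymotrypsin-like serine proteases, made as inactive proenzymes. In the outer epidermis KLK5 can activate itself and then KLK7 and KLK14, and these enzymes cut the desmosomal proteins that hold corneocytes together, so that the surface can shed. SPINK5 encodes LEKTI, a multidomain inhibitor of KLK5, KLK7 and KLK14, and its loss causes Netherton syndrome, in which the skin barrier fails. SPINK6 encodes a small inhibitor of several of the same enzymes.

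The 8 kallikreins lie on 1 strand of chromosome 19 (GRCh38, minus strand). KLK5 (ENSG00000167754, chr19:50943303-50953093) is followed by KLK6 (ENSG00000167755, chr19:50958631-50969673) after a gap of 5537 bp, and KLK14 (ENSG00000129437, chr19:51077495-51084245) is the farthest. KLK10 (ENSG00000129451, chr19:51012739-51020175) lies between them, 2040 bp from KLK11. SPINK5 (ENSG00000133710, chr5:148025683-148137382) and SPINK6 (ENSG00000178172, chr5:148202794-148215137) lie on the plus strand of chromosome 5, 65411 bp apart. Since the counting is not stated to use strand, exons that overlap other genes are a source of uncertainty. This share was 40.1% of the exonic bases for KLK8, which overlaps KLK9 and ENSG00000269741 on its own strand, and 20.5% for KLK6, 12.2% for KLK5, 6.76% for SPINK5 and 6.32% for KLK10, which overlap genes on the other strand. ENSG00000269495, the antisense gene that overlaps KLK5 and most of the shared part of KLK6, had 0 counts in all 20 libraries.

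The sequences in front of KLK5, KLK6, KLK10 and SPINK5 are shown because these were the members with enough counts to test. Each runs from 250 bases before to 50 bases after a transcription start of RefSeq (GRCh38.p14), 5′ to 3′ on the strand of the gene, and the upstream one of the 2 windows listed for KLK10 is given. Capitals mark the matches, on either strand, to a fixed set of motifs spelled out after them.
KLK5 (chr19:50952989-50953288, minus strand): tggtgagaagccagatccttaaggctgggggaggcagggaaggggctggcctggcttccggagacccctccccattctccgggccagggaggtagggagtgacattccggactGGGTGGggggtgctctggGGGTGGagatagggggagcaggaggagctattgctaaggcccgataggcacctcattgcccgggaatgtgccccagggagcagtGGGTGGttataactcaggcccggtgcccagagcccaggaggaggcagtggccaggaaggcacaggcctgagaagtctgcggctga
KLK6 (chr19:50969542-50969841, minus strand): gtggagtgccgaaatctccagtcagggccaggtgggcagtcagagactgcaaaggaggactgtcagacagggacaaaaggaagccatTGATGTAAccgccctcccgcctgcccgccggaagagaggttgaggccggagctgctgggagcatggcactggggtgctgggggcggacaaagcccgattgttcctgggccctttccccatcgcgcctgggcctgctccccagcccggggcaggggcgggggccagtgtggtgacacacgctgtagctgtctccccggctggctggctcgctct
KLK10 (chr19:51019812-51020111, minus strand): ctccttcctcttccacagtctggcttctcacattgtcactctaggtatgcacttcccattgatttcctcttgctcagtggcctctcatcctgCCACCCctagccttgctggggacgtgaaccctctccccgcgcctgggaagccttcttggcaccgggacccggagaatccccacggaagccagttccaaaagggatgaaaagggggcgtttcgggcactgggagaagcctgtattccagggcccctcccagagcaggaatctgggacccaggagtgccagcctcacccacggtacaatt
SPINK5 (chr5:148063730-148064029, plus strand): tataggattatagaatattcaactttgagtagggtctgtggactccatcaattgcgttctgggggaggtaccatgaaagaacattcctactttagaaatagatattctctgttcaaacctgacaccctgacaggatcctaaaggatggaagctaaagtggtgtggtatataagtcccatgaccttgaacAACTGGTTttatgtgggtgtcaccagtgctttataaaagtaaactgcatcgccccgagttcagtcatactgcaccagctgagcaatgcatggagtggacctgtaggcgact

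The GC content of these windows was 64.7% for KLK5, 66.3% for KLK6 and 59.0% for KLK10, against 43.7% for SPINK5. The SPINK5 window lies inside the longer gene span of the GENCODE annotation. The motifs searched were TGANTCA (AP-1), TGACGTCA (CRE), TGATGNAA (the amino acid response element of C/EBP-ATF dimers), TTGCGCAA (C/EBP), TTGCATCA (C/EBP-ATF), AACCGGTT and AACCNGTT (GRHL) and CCACCC (KLF). On the other strand TTGCATCA is a case of TGATGNAA, and AACCGGTT is a case of AACCNGTT. KLK5 held CCACCC at 3 places, all on the other strand, as GGGTGG. KLK6 held TGATGTAA, a match to TGATGNAA, at position -163 counted from its start. SPINK5 held AACTGGTT, a match to AACCNGTT on the other strand, at position -61. Of the 35116 windows of this length listed for all genes, 34.3% held CCACCC, 3.62% TGATGNAA and 1.73% AACCNGTT. Of the 9 members with a listed window, 6 held CCACCC, 1 held TGATGNAA and 1 held AACCNGTT, and 1 (SPINK6) held TGANTCA, which 7.71% of all windows held. Members have 1 to 3 windows each, and a match is a description of the letters only. KLK8 is not listed.

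The libraries held 14083504 to 34611570 counts, with the lowest median, 23685751, in WT unwounded cells. Normalized read counts below are counts scaled to a common library size with TMM factors taken over the 20 libraries. EIF2AK4 was at 3980 to 4555 normalized read counts in the 10 WT libraries and at 806 to 962 in the 10 GCN2KO libraries, a log2 fold change of -2.28 unwounded (SE 0.0649, edgeR adjusted p = 4.29e-13) and -2.27 after HDW (SE 0.0520, adjusted p = 3.26e-12), in the direction the labels state. The defining keratinocyte genes KRT5 and KRT14 were abundant in every group. The late differentiation gene LORICRIN had 0 to 3 counts summed over a group and CDSN (corneodesmosin) 3 to 17.

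KLK5, KLK6, KLK10 and SPINK5 were the members with enough counts for the test, and the other 6 were near the limit of detection in every group. KLK5 and KLK6 were 9.85 to 28.04 times higher in GCN2KO than in WT cells, unwounded and after HDW. SPINK5 was lower in GCN2KO cells in both conditions. KLK10 rose after HDW in WT cells and had no such rise in GCN2KO cells. A gene passed edgeR's quasi-likelihood test where its p, adjusted over all tested genes (Benjamini-Hochberg), did not exceed 0.05, and a DE gene also changed by 1 or more on the log2 scale. Since RNA is from whole cultures, a change in the number of cells that express a gene and a change in RNA per cell cannot be told apart.

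**Figure D1:**
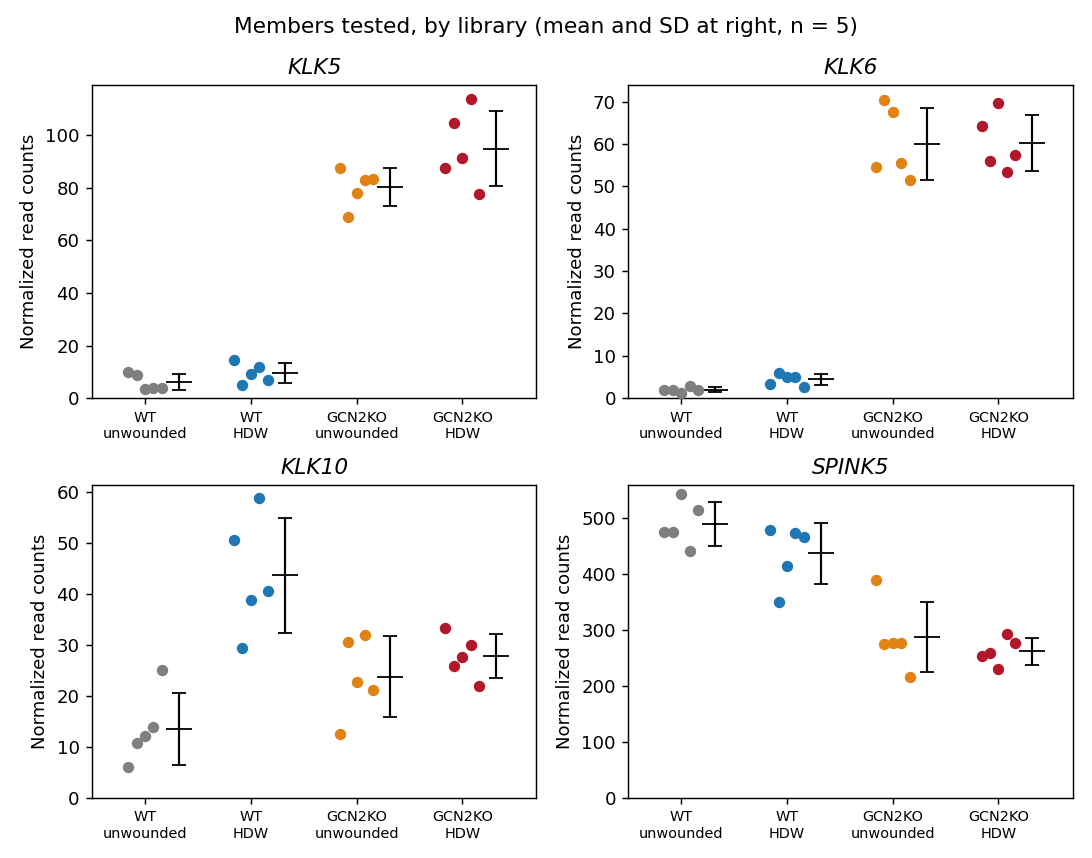
Normalized read counts (y axis, linear, from 0) of KLK5, KLK6, KLK10 and SPINK5 in each library of the 4 groups (x axis). Points are libraries, and the black mark at the right of each group is the mean with the SD (n = 5). KLK5 and KLK6 sit at 51.5 or above in each GCN2KO library and at 14.3 or below in each WT library, SPINK5 is lower in the GCN2KO libraries, and KLK10 is highest in WT HDW.

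KLK5, the trypsin-like enzyme at the head of the cascade, had 3.62, 3.72, 3.86, 8.92 and 9.94 normalized read counts in the WT unwounded libraries. After HDW the WT libraries held 5.05, 6.92, 9.28, 12.0 and 14.3. The GCN2KO unwounded libraries held 69.0, 78.1, 83.2, 83.6 and 87.5, and the GCN2KO HDW libraries 77.6, 87.6, 91.4, 105 and 114. Every GCN2KO library stood above every WT library, while the unwounded and HDW libraries of each genotype overlapped. The means in WT cells were 6.01 ± 3.14 (SD, n = 5) unwounded and 9.51 ± 3.74 after HDW, and those in GCN2KO cells 80.3 ± 7.16 and 94.96 ± 14.3. KLK5 was higher in GCN2KO cells by a log2 fold change of 3.90 unwounded (SE 0.233, adjusted p = 6.68e-10) and 3.30 after HDW (SE 0.205, adjusted p = 7.75e-09). The WT values rest on few reads, 21 counts over the 5 unwounded and 54 over the 5 HDW libraries, against 409 and 488 in GCN2KO cells. Relative to the summed library totals, GCN2KO exceeded WT 15.1 times unwounded and 10.1 times after HDW.

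KLK6, a trypsin-like kallikrein also known as neurosin, had 1.21, 1.78, 1.93, 1.99 and 2.79 normalized read counts in WT unwounded libraries, from 1 to 3 counts each. The WT HDW libraries held 2.59, 3.37, 4.99, 5.06 and 5.89. The GCN2KO unwounded libraries held 51.5, 54.6, 55.5, 67.5 and 70.5, and the GCN2KO HDW libraries 53.5, 56.0, 57.5, 64.2 and 69.6. As for its neighbour KLK5, both GCN2KO groups stood clear of both WT groups, and the ranges of the 2 GCN2KO groups nearly coincided. GCN2KO cells exceeded WT cells by 4.81 on the log2 scale unwounded (SE 0.269, adjusted p = 3.45e-10) and by 3.76 after HDW (SE 0.196, adjusted p = 1.65e-09). With 8 counts over the WT unwounded libraries and 298 over the GCN2KO unwounded libraries, the ratio relative to library totals was 28.9, and with 25 and 319 counts after HDW it was 14.3.

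KLK5 and KLK6 passed the filter on low counts in the genotype comparisons only through the GCN2KO group, where they are high. The filter thus favoured a difference in this direction, so their passing the test is no separate support for it. Higher in GCN2KO cells were 2 of the 4 tested members unwounded and 2 of 4 after HDW, both times KLK5 and KLK6 and both DE genes. Over all genes tested, 33.4% were higher unwounded and 35.9% after HDW, and 8.21% and 7.10% were DE genes that were higher. Their groups did not overlap, which also held for 26.4% of all tested genes on the higher side unwounded and 27.9% after HDW. Leaving out each library in turn kept KLK5 between 3.75 and 4.09 unwounded and between 3.13 and 3.50 after HDW, and KLK6 between 4.67 and 5.01 and between 3.62 and 3.89, all past the test. All GCN2KO libraries come from the edited pool, and effects of that pool other than the loss of GCN2 cannot be told apart from it.

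SPINK5, the gene of LEKTI, had more read counts than any other member in every group, before any correction for gene length, and moved the other way from KLK5 and KLK6. WT unwounded libraries held 441, 475, 475, 515 and 543 normalized read counts and WT HDW libraries 350, 414, 467, 474 and 479. GCN2KO unwounded libraries held 216, 274, 277, 277 and 389, and GCN2KO HDW libraries 230, 253, 258, 277 and 293. Every GCN2KO library was below every WT library of the same condition, although 1 GCN2KO unwounded library, replicate 1, stood above the other 4 and above the lowest WT HDW library. SPINK5 fell in GCN2KO cells by 0.77 on the log2 scale unwounded (SE 0.123, adjusted p = 3.82e-05) and by 0.74 after HDW (SE 0.0925, adjusted p = 5.67e-06). Neither value reached the fold of a DE gene. Lower genes made up 33.1% of all tested genes unwounded and 35.8% after HDW, and among the 4 tested members SPINK5 was the only one lower unwounded, joined by KLK10 after HDW. The groups did not overlap for SPINK5 in either condition, as for 27.0% of all tested genes on the lower side unwounded and 29.3% after HDW. The noncoding gene FBXO38-DT, which shares 323 exonic bases with SPINK5 on the other strand, held 5 to 22 counts summed over a group, against 1350 to 2490 for SPINK5.

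**Figure D2:**
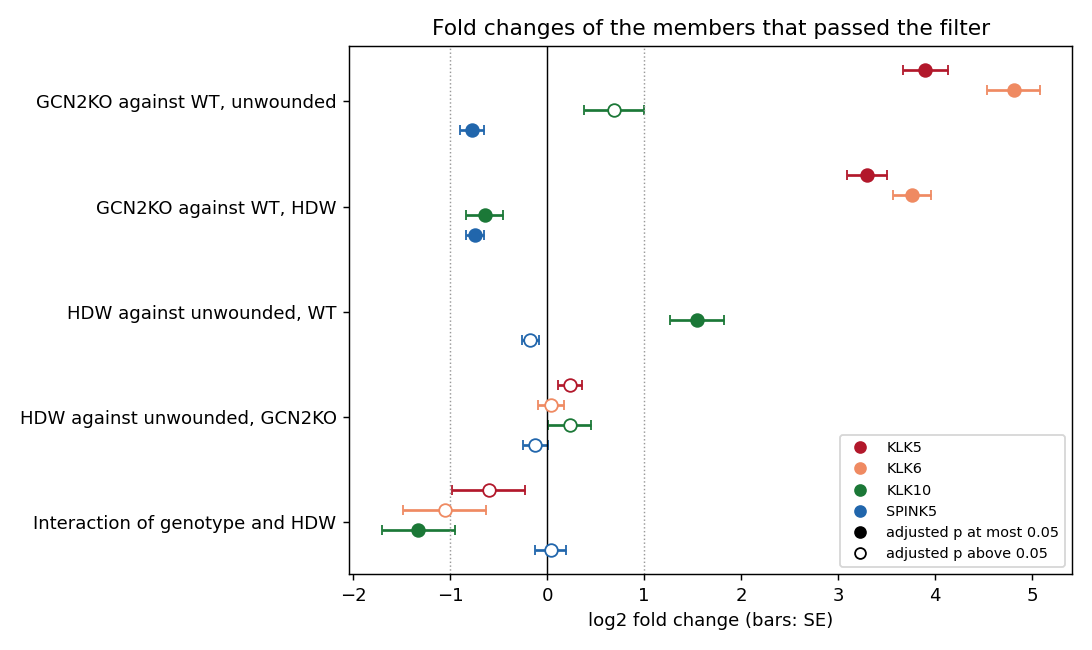
Log2 fold changes (x axis, with SE bars) of the 4 members that passed the filter, in the 4 comparisons and for the interaction term of genotype with HDW (y axis). Filled points have an adjusted p of at most 0.05, and dotted lines mark the fold of a DE gene. KLK5 and KLK6 lie between 3.30 and 4.81 in both genotype comparisons, SPINK5 lies at -0.77 and -0.74, and KLK10 changes side between them.

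KLK10, a kallikrein once named NES1, had the only response to HDW among the tested members. WT unwounded libraries held 5.96, 10.7, 12.1, 13.9 and 25.1 normalized read counts, from 3 to 26 counts each, and WT HDW libraries 29.4, 38.8, 40.6, 50.6 and 58.8. GCN2KO unwounded libraries held 12.5, 21.1, 22.8, 30.7 and 31.9, and GCN2KO HDW libraries 22.0, 25.9, 27.7, 30.1 and 33.4. The WT HDW libraries were all above the WT unwounded ones, while the 2 GCN2KO groups overlapped and had means between those of the WT groups (23.8 and 27.8, against 13.5 and 43.7). In WT cells KLK10 rose after HDW by a log2 fold change of 1.54 (SE 0.276, adjusted p = 0.000242). Here it passed the filter on low counts partly through the WT HDW group, where it is high, which favours a difference. WT unwounded replicate 1, at 3 counts, was under the filter's limit. The edgeR fit without a filter gave 1.55 (SE 0.241, adjusted p = 2.11e-07). In GCN2KO cells the value was 0.23 (SE 0.225, adjusted p = 0.470). A direct test of the difference between these responses over all 20 libraries (the interaction term) gave -1.33 (SE 0.374, adjusted p = 0.0117), a DE gene in that test, as were 2.15% of all tested genes on the lower side.

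Between genotypes KLK10 differed by 0.69 unwounded (SE 0.314, adjusted p = 0.0630), which did not pass the test, and fell by 0.64 after HDW (SE 0.192, adjusted p = 0.00814), with overlapping groups in both. The unwounded value depended on single libraries. Without WT unwounded replicate 5, the highest of that group, it was 1.06 (adjusted p = 0.00975), and without GCN2KO unwounded replicate 1 it was 0.83 (adjusted p = 0.0236). Without the filter it was 0.68 (adjusted p = 0.0455) and with all 20 libraries in 1 fit 0.68 (adjusted p = 0.0456). The interaction kept its sign and passed the test without any 1 of the 20 libraries, at -1.70 to -1.17.

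HDW moved few members. In WT cells only KLK10 and SPINK5 had enough counts, and KLK10 was the 1 member that rose, where 26.1% of all tested genes were higher and 25.2% lower, and 2.62% were DE genes that were higher. Its WT groups did not overlap, as for 19.2% of all tested genes on that side. SPINK5 differed by -0.17 (SE 0.0842, adjusted p = 0.104). In GCN2KO cells 0 of the 4 tested members passed edgeR's test, where 11.9% of all tested genes were higher and 10.8% lower. None had an unadjusted p under 0.05, and DESeq2 also called 0. The values were 0.23 for KLK5 (SE 0.123, adjusted p = 0.180), 0.04 for KLK6 (SE 0.134, adjusted p = 0.862) and -0.12 for SPINK5 (SE 0.131, adjusted p = 0.526). The interaction was -1.06 for KLK6 (SE 0.425, adjusted p = 0.153), -0.60 for KLK5 (SE 0.379, adjusted p = 0.265) and 0.04 for SPINK5 (SE 0.162, adjusted p = 0.902), so KLK10 was the 1 member past the test there, against 12.5% of all genes on the lower side and 11.2% on the higher. In WT cells, where the filter left them out, KLK5 differed after HDW by 0.82 (SE 0.413, adjusted p = 0.158) and KLK6 by 1.10 (SE 0.588, adjusted p = 0.198) in the fit without a filter.

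The remaining 6 members had 0 to 11 counts in any library and were left out of every test by the filter. KLK7, the chymotrypsin-like enzyme of corneocyte shedding, summed to 4 counts in WT cells left unwounded and 12 after HDW, and to 12 and 18 counts in GCN2KO cells. KLK11 summed to 5 and 12 counts in WT and to 19 and 14 in GCN2KO cells, and its libraries overlapped in all 4 comparisons. Per 10000000 counts KLK7 was at 0.352 in WT unwounded (exact Poisson 95% interval 0.0959 to 0.901, which covers counting error only) and at 1.21 in wounded GCN2KO cells (0.715 to 1.91). For each of these genes the intervals of all 4 groups overlapped, which does not exclude a difference. In the edgeR fit without a filter, the adjusted p over the 4 comparisons was 0.336 or more for KLK7 and 0.0995 or more for KLK11.

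KLK8, also known as neuropsin, had 0 counts in all 5 WT unwounded libraries, which allows up to 0.264 per 10000000 (3 counts over the group). The WT HDW libraries held 1, 2, 2, 3 and 6 counts, the GCN2KO unwounded libraries 0, 0, 1, 5 and 10, and the GCN2KO HDW libraries 1, 2, 3, 6 and 11. Every WT HDW library thus had KLK8 counts and no WT unwounded library did, a separation that 19.2% of all tested genes showed in this direction. KLK8 in WT HDW was 3.18 times the limit of 3 counts in WT unwounded cells, without allowance for counting error. The exact Poisson intervals of WT HDW (0.459 to 1.41 per 10000000) and WT unwounded cells (0 to 0.325) did not overlap. Of the 16 counts in GCN2KO unwounded cells 10 came from 1 library and 2 of the 5 libraries had none, so that these cells overlapped with WT unwounded cells and no fold is given. The genes that overlap KLK8 on its strand held 0 to 4 counts summed over a group.

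KLK13 had 0 counts in both WT groups and 1 count in each GCN2KO group. KLK14, an activator within the cascade, had 2 counts in WT unwounded and 1 in WT HDW cells, and 0 and 6 in the GCN2KO groups. The 6 counts were spread over all 5 GCN2KO HDW libraries, so that this group stood above GCN2KO unwounded in each library. The groups did not overlap in this direction for 7.52% of all tested genes. KLK14 in GCN2KO HDW was 1.96 times the 3-count limit of GCN2KO unwounded cells, without allowance for counting error. The exact Poisson intervals of GCN2KO HDW (0.148 to 0.875 per 10000000) and GCN2KO unwounded cells (0 to 0.252) overlapped. The edgeR fit without a filter gave 3.39 on the log2 scale (SE 1.24, adjusted p = 0.0712), so the 1.96 is not to be read as a minimum fold. SPINK6 had 0 and 1 counts in WT and 2 and 1 in GCN2KO cells, no more than 1 in any library. A count of 0 over a group allows 0.180 to 0.264 per 10000000.

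**Figure D3:**
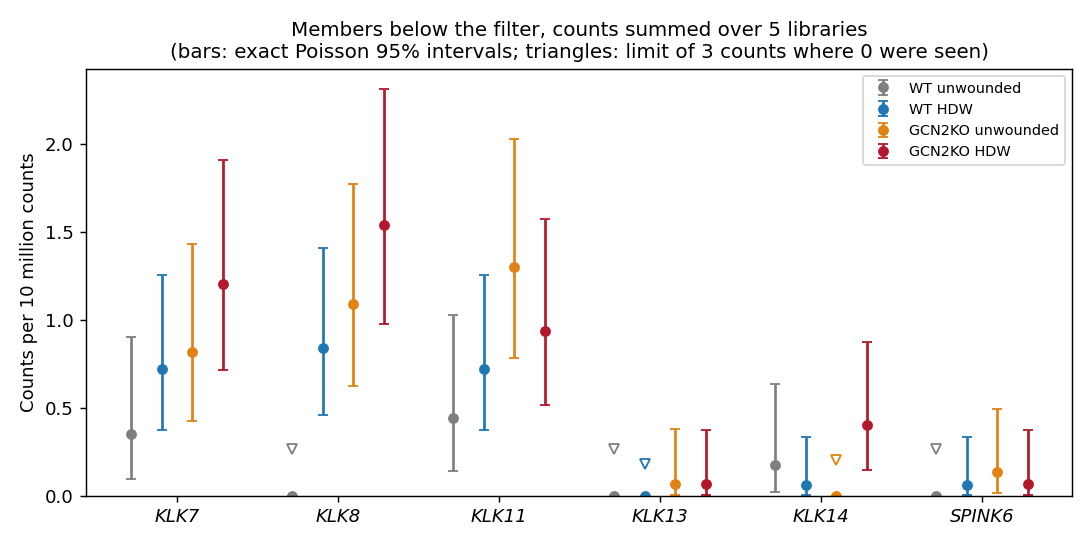
Counts per 10000000 counts (y axis, linear, from 0) of the 6 members below the filter (x axis), summed over the 5 libraries of each group, with exact Poisson 95% intervals for counting error. Open triangles mark the limit of 3 counts for groups with 0 counts. KLK8 is at 0 in WT unwounded and at 0.839 to 1.54 in the other groups, while KLK13, KLK14 and SPINK6 stay at or below 0.402.

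Levels of different genes were compared as normalized counts per kilobase of exon and 1000000 counts. SPINK5 was the member with the highest mean in both WT groups and in GCN2KO unwounded cells, but not in GCN2KO HDW cells. It stood at 3.56 ± 0.289 (SD, n = 5) unwounded and 3.18 ± 0.400 after HDW in WT cells and at 2.09 ± 0.456 and 1.91 ± 0.174 in GCN2KO cells. In WT unwounded cells KLK5 (0.126 ± 0.0661) and KLK10 (0.124 ± 0.0648) came next and did not differ beyond their spread, and KLK6 followed at 0.0341 ± 0.00995. In WT HDW cells KLK10 was the highest kallikrein at 0.400 ± 0.104, ahead of KLK5 at 0.200 ± 0.0787 and KLK6 at 0.0771 ± 0.0238. In GCN2KO cells the order was KLK5, KLK6 and KLK10, at 1.69 ± 0.150, 1.05 ± 0.150 and 0.218 ± 0.0722 unwounded and 1.997 ± 0.300, 1.06 ± 0.116 and 0.255 ± 0.0391 after HDW. In GCN2KO HDW cells the mean of KLK5 was thus above that of SPINK5, and SPINK5 was below KLK5 in 4 of the 5 libraries, but the 2 means differed by less than the SD of KLK5. The other 5 kallikreins and SPINK6 stayed at mean levels of 0.0758 or less in every group.

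The level summed over the 8 kallikreins was 0.326 ± 0.0493 unwounded and 0.780 ± 0.185 after HDW in WT cells, against 3.09 ± 0.0837 and 3.50 ± 0.303 in GCN2KO cells. SPINK5 per summed kallikrein, a ratio of levels per length, was 11.3 ± 3.02 and 4.18 ± 0.655 in the WT groups, against 0.678 ± 0.164 and 0.549 ± 0.0801 in the GCN2KO groups. In every WT library the inhibitor's level thus exceeded that of the kallikreins together, by 3.57 times or more, and in every GCN2KO library it was below it, at 0.950 times or less. The mean mix of kallikreins also differed (mean ± SD, n = 5). KLK10 made up 38.7 ± 19.3% of the summed level in WT unwounded and 51.2 ± 3.88% in WT HDW cells but 7.04 ± 2.31% and 7.27 ± 0.965% in GCN2KO cells. KLK6 made up 10.3 ± 2.09% and 10.7 ± 5.59% in WT cells and 34.1 ± 4.74% and 30.4 ± 3.85% in GCN2KO cells. KLK5 made up 38.2 ± 17.3% and 24.9 ± 4.62% in WT and 54.7 ± 5.40% and 56.9 ± 5.29% in GCN2KO cells. Its share overlapped between the genotypes unwounded (22.3 to 58.6% in WT, 47.7 to 61.9% in GCN2KO libraries), where the WT libraries held 3 to 5 KLK5 counts each. These ratios describe RNA levels, not enzyme activity, and were not tested, since they combine the values given above. Whether SPINK5 stands above or below the sum in GCN2KO cells depends on the exon lengths used (4780 bases for SPINK5 and 1653 for KLK5). The sum also includes kallikreins not named above as targets of LEKTI, such as KLK10.

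**Figure D4:**
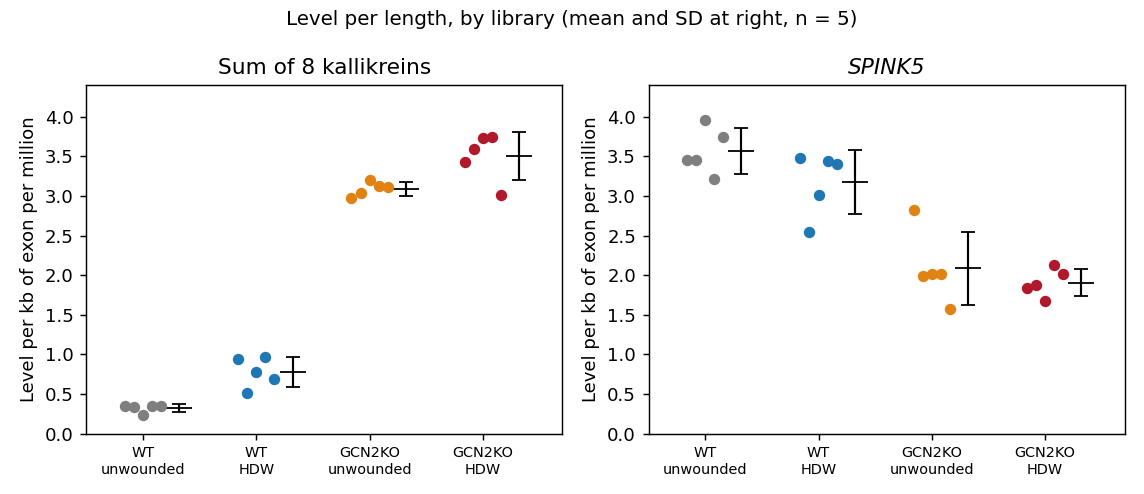
Level per kilobase of exon and 1000000 counts (y axes, linear, same scale from 0) of the 8 kallikreins summed and of SPINK5, in each library of the 4 groups (x axis), with mean and SD at the right of each group (n = 5). The summed kallikreins are at 0.965 or below in the WT libraries and at 2.98 or above in the GCN2KO libraries, while SPINK5 goes from 2.54 to 3.95 in WT to 1.57 to 2.83 in GCN2KO libraries.

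The genes around the members did not share their direction as a block. KLK9 and KLK12, which lie among the kallikreins on chromosome 19, had 0 to 2 counts summed over a group. Of 24 other tested genes within 1 Mb of the kallikreins, 11 were higher and 6 lower in GCN2KO unwounded cells, the median change being 0.13 on the log2 scale, and after HDW 10 of 25 were higher and 10 lower, with a median of -0.09. The nearest tested gene at lower coordinates, C19orf48P, was lower in GCN2KO unwounded cells (-0.77, SE 0.0726, adjusted p = 1.25e-07), and CTU1 on the other side of the cluster was at 0.31 (SE 0.220, adjusted p = 0.221). Of 6 other tested genes within 1 Mb of SPINK5 and SPINK6, 3 were higher and 1 lower unwounded, with a median of 0.13, and after HDW 5 of 7 were higher and 2 lower, with a median of 0.21. On the long arm of chromosome 5 as a whole 330 of 575 tested genes were higher and 90 lower in GCN2KO unwounded cells, with a median of 0.36, and after HDW the median was 0.38. SPINK5 was thus lower in GCN2KO cells on an arm where the median gene was higher, while the median over all tested genes was 0.00. Whether the arm has a different copy number in the edited pool was not tested.

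**Figure D5:**
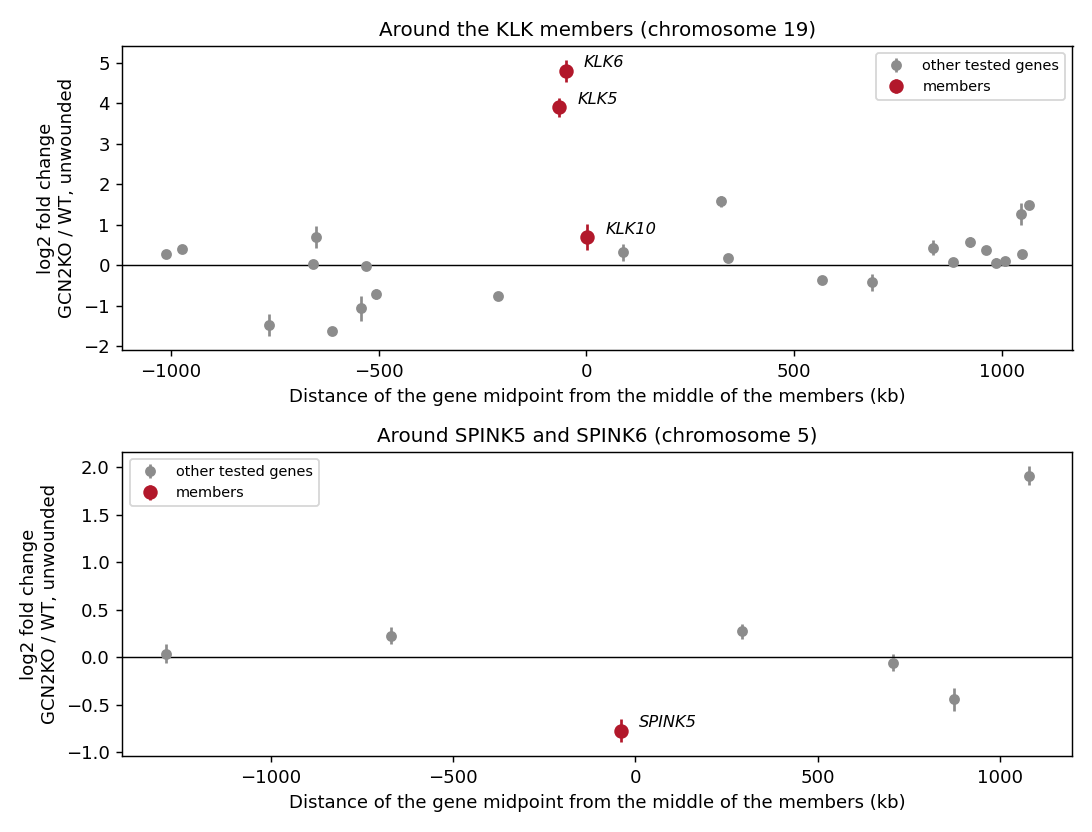
Log2 fold change of GCN2KO against WT unwounded cells (y axis, with SE bars) of every tested gene within 1 Mb of the members, against the distance of its midpoint from the middle of the members in kb (x axis), for the kallikreins (upper panel) and for SPINK5 and SPINK6 (lower panel). KLK5 and KLK6 lie above all neighbours at 3.90 and 4.81, and SPINK5 lies below its neighbours at -0.77.

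Across the 20 libraries the log2 normalized counts of KLK5 and KLK6 correlated with a Pearson r of 0.96, and those of SPINK5 with r of -0.86 to KLK5 and -0.92 to KLK6. These points fall into a WT and a GCN2KO cluster and share their libraries, so the values describe the genotype groups. Within groups, after the group means were removed, r was -0.15 for KLK5 and KLK6, 0.21 for KLK5 and SPINK5 and -0.45 for KLK6 and SPINK5. The tested genes most like KLK5 over the 20 libraries were SPRR3 (r of 0.98), KRT16 (0.97) and SPRR2E (0.97), of which the SPRR genes encode cornified envelope precursors and KRT16 a keratin of activated keratinocytes. KRT16 and SPRR2E have near-identical relatives, so their counts are uncertain. The genes most like KLK6 were others, BVES, CANX and ELL2 (0.99 each), and those most like SPINK5 were FHL3 (0.98), UBE2E3 (0.97) and LTA4H (0.96). Such likeness was common: 848 of 16532 genes had an r of at least 0.9 with KLK5, 1327 with KLK6 and 569 with SPINK5. KLK7 had too few counts for this.

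The other members of both families were scarce in these cells. Of the further kallikrein genes, KLK1 had 3 to 11 counts summed over a group, KLK12 and KLK9 had 2 and 1 at most, and KLK2, KLK3, KLK4 and KLK15 had 0 in all libraries, as did KLKB1, which encodes plasma kallikrein and is not of the same family. Of 8 further SPINK genes, SPINK1 summed to 3 counts in each WT group and to 21 and 26 in the GCN2KO groups. SPINK7 had 0 in both WT groups and 15 and 13 counts in GCN2KO cells, and SPINK8 had 4 and 1 in WT and 12 and 13 in GCN2KO cells. The further SPINK genes summed to 5 counts or less in any group.

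Protease inhibitors outside the SPINK family moved with genotype in both directions. Of 10 tested, 7 were higher and 2 lower in GCN2KO cells both unwounded, with a median change of 1.03 (log2), and after HDW, with a median of 0.59. Over all tested genes 33.4% were higher and 33.1% lower unwounded, and 35.9% and 35.8% after HDW, with medians of 0.00 both times, and the lists that follow stand beside the same shares. PI3 (elafin) was higher by 1.96 unwounded (SE 0.0801, adjusted p = 1.48e-11) and CST6 (cystatin M/E, an inhibitor of cysteine rather than serine proteases) by 3.62 (SE 0.213, adjusted p = 5.93e-10). After HDW CST6 was higher by 1.84 (SE 0.151, adjusted p = 9.35e-08), and SERPINB6 was lower (-0.93, SE 0.0522, adjusted p = 3.20e-09). Counted among the 7 higher is WFDC12, with 8 and 29 counts over the WT groups against 444 and 342 over the GCN2KO groups. Counted among the 2 lower is SERPINA3 (alpha-1-antichymotrypsin), with 112 and 109 counts in WT against 36 and 30 in GCN2KO cells. Both passed the filter through 1 genotype, where they are high, which favours a difference, so their passing the test is no separate support for it. Like KLK10, both PI3 (1.04, adjusted p = 4.46e-08) and CST6 (1.71, adjusted p = 7.71e-06) rose after HDW in WT cells, and their interactions were -1.01 (adjusted p = 2.73e-06) and -1.77 (adjusted p = 9.42e-05). Unlike KLK10, PI3 (0.95, adjusted p = 3.81e-07) and CST6 were higher in GCN2KO cells after HDW. For the interaction 5 of the 10 tested inhibitors were lower and 0 higher, against 12.5% and 11.2% of all tested genes.

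Among proteases that act with kallikreins in the epidermis, 7 of 10 tested were higher and 2 lower in GCN2KO unwounded cells (median 0.78), and 6 were higher and 3 lower after HDW (median 0.75). PRSS27 was higher by 2.34 unwounded (SE 0.0968, adjusted p = 1.69e-11) and 1.75 after HDW (SE 0.0848, adjusted p = 9.46e-10). PRSS8 (prostasin), a membrane-anchored protease of the barrier, was higher by 1.16 after HDW (SE 0.0615, adjusted p = 1.85e-09). PRSS3 (mesotrypsin) was higher by 2.42 unwounded (SE 0.100, adjusted p = 1.69e-11), though its reads may be shared with close trypsinogen relatives. CTSC (cathepsin C) was lower by a log2 fold change of -0.69 unwounded (SE 0.0611, adjusted p = 5.99e-08) and -0.61 after HDW (SE 0.0354, adjusted p = 3.99e-09).

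Known targets of epidermal kallikreins did not move together. Of 9 tested, 4 were higher and 3 lower in GCN2KO unwounded cells (median 0.12), and 2 were higher and 2 lower after HDW (median 0.05). The desmosomal cadherin DSC1 was higher by 1.10 unwounded (SE 0.230, adjusted p = 0.000526) and 1.12 after HDW (SE 0.212, adjusted p = 0.000287), while DSG1 had 2 to 19 counts over a group. F2R, which encodes the protease-activated receptor PAR1, was higher by 0.33 unwounded (SE 0.0576, adjusted p = 0.000110) and 0.79 after HDW (SE 0.0377, adjusted p = 8.36e-10). F2RL1, which encodes PAR2, the receptor that KLK5 cleaves, was higher by 0.32 unwounded (SE 0.0694, adjusted p = 0.000746) and at 0.11 after HDW (SE 0.0615, adjusted p = 0.109). PLAU (urokinase) was lower by a log2 fold change of -1.54 and -1.47 (SE 0.0950 and 0.0783, adjusted p = 9.50e-10 and 1.94e-09), and IL1B by -0.67 and -1.19 (SE 0.0831 and 0.0603, adjusted p = 2.77e-06 and 1.28e-09).

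Transcription factors of keratinocyte differentiation divided nearly evenly, with 7 of 17 higher and 9 lower in GCN2KO unwounded cells (median -0.38) and 8 higher and 9 lower after HDW (median -0.15). PRDM1 (BLIMP1) was higher by 1.07 unwounded (SE 0.0945, adjusted p = 5.86e-08), KLF4 by 0.87 (SE 0.0811, adjusted p = 1.00e-07), and RXRA was lower (-0.92, SE 0.0888, adjusted p = 1.58e-07). After HDW ELF3 was higher by 0.60 (SE 0.0375, adjusted p = 7.60e-09), and TP63, the factor of the basal state, was lower (-0.43, SE 0.0352, adjusted p = 9.42e-08).

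Markers of the state of the keratinocytes moved with genotype along with KLK5, KLK6 and SPINK5. Of 10 tested markers of suprabasal cells, 5 were higher and 3 lower in GCN2KO cells both unwounded and after HDW, and the summed normalized counts of the 14 listed went from 8051 to 10248 in WT unwounded libraries to 15012 to 21166 in GCN2KO unwounded libraries and from 7896 to 10832 to 18526 to 25252 after HDW. IVL (involucrin) was higher by 1.83 unwounded (SE 0.131, adjusted p = 4.94e-09), whereas KRT10 was at 0.23 (SE 0.134, adjusted p = 0.144) and FLG (filaggrin) was lower (-0.93, SE 0.174, adjusted p = 0.000184). Of 7 basal markers, 6 were lower and 1 higher unwounded and 5 lower and 1 higher after HDW. Their summed normalized counts went from 497580 to 518780 in WT to 426880 to 507070 in GCN2KO unwounded libraries, and after HDW from 543350 to 585420 to 552890 to 577290, with overlap in both conditions. The simple-epithelium keratins KRT8 and KRT18 were higher by 1.40 (SE 0.0866, adjusted p = 9.71e-10) and 1.51 (SE 0.0708, adjusted p = 5.50e-11), and the summed counts of 4 such markers went from 11161 to 11901 to 25750 to 34887. Of markers of other cell types, MITF was higher in GCN2KO cells by 1.98 (SE 0.170, adjusted p = 3.94e-08), but the melanocyte enzyme TYR had 0 counts in every library, and the summed counts of the 6 melanocyte markers went from 130 to 171 to 351 to 517 unwounded. Of 6 immune markers 1 was tested, CD14, which was lower in GCN2KO cells by a log2 fold change of -1.10 unwounded (SE 0.146, adjusted p = 6.15e-06) and -0.67 after HDW (SE 0.180, adjusted p = 0.00425). The immune sum, nearly all of it CD14, went from 1576 to 1815 in WT to 587 to 1209 in GCN2KO unwounded libraries and from 838 to 983 to 370 to 959 after HDW, while PTPRC, which marks leukocytes, had 0 to 2 counts over a group. The 7 fibroblast markers summed to 904 to 1043 in WT and 669 to 889 in GCN2KO unwounded libraries and the 4 endothelial markers to 20.1 or less in any library. The part of these markers in the values of the kallikreins and SPINK5 was not tested.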

How the data were processed

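RNA-seq of 20 NTERT keratinocyte cultures in 4 groups of 5 was analysed from the deposited values, which are raw counts per gene and library. Per the labels and the study's methods, the authors trimmed the paired 150-base reads with Trimmomatic, mapped them with STAR (GRCh38) and used featureCounts to count unique alignments over the exons of each gene. Strandedness and the handling of overlapping genes are not given in the sources used here. Of the 57500 identifiers, 56410 had an entry in GENCODE 44, the source of symbols, positions and exon lengths, and 1090 had none. No pair of replicates agreed within sampling noise: the chi-square per degree of freedom between their counts was 2.41 or more. Replicates were not equally alike. In GCN2KO unwounded cells the value was 6.76 for replicates 2 and 4 and 8.44 for 3 and 5, but 19.2 to 49.4 for the other pairs. It reached 11.8 in WT unwounded, 21.8 in WT HDW and 40.8 in GCN2KO HDW cells. The cause of this spread was not tested.

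Groups came from the labels. Each comparison was fitted by glmQLFit and glmQLFTest of edgeR 4.0.16 (R 4.3.3) on the 10 libraries of its groups, and the interaction on all 20, after filterByExpr (count of at least 10, total of at least 15) and TMM scaling. Adjusted p-values cover all tested genes. The SE is the log2 fold change over the square root of F. KLK10 and SPINK5 passed this filter in all comparisons, KLK5 and KLK6 in all but HDW in WT cells, and the other 6 members in none. Levels per kilobase are normalized counts over the exon union and 1000000 counts. Correlations used log2 with a pseudocount of 0.5. Counts per 10000000 have exact Poisson 95% intervals. The steps were tested on simulated counts. Tables and figures were made in Python 3.11 (pandas 2.3.3, scipy 1.17.1, matplotlib 3.10.9).

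All members, EIF2AK4 and, for each list, genes among the 2 with the smallest adjusted p in each direction of a comparison were named, with further list genes where a sentence turns on them (F2RL1, DSC1, DSG1, KRT10, FLG, TYR, PTPRC), and 1 result that this rule would name is not reported here. The members, the lists and the tests were chosen with earlier results of these data known. Alternatives were DESeq2 1.42.0, its size factors, no filter, a floor of 50 mean counts, library size alone, all 20 libraries in 1 fit, the replicate number as a block and each library left out. The authors' tables of their own comparisons were not used.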

Additional observations from a re-analysis of the deposited data

Results flagged for a closer look

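The response of KLK10 to HDW differed between genotypes by the interaction test over all 20 libraries. The log2 fold change after HDW was 1.54 in WT cells (SE 0.276) and 0.23 in GCN2KO cells (SE 0.225), an interaction of -1.33 (SE 0.374, edgeR adjusted p = 0.0117), and WT HDW libraries were above WT unwounded libraries in 5 of 5. KLK10 had 60 counts in all over the WT unwounded libraries, the fewest of the 4 groups. The 19 groups of 5 libraries in which a member averaged at least 3 counts were examined for a library far from the others by Dixon's 95% critical value, which chance passes in about 1 of 20 groups, and none was found.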

How the results depend on the processing

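KLK5, KLK6 and SPINK5 kept their direction and passed the test in both genotype comparisons under every alternative that tested them, as did KLK10 for HDW in WT cells and for the interaction. For KLK5 and KLK6 this adds no support, since they passed the filter only through the GCN2KO group, where they are high, which favours a difference. KLK10 passed it for HDW in WT cells partly through the WT HDW group, where it is high. DESeq2 and its size factors changed no call of a member. Library size alone made SPINK5 the 1 member lower after HDW in WT cells (-0.21, adjusted p = 0.0430). Without a filter 2 members were higher and DE genes after HDW in WT cells (KLK8 besides KLK10), 4 were higher in GCN2KO unwounded cells (KLK8 and KLK10 besides KLK5 and KLK6), the KLK8 calls being against a group at 0 counts, and DE genes over all numbered 998 and 199 for HDW in WT and GCN2KO cells and 3920 and 3681 for genotype unwounded and after HDW. A mean of at least 50 counts tested fewer genes and removed most kallikreins: members higher and DE genes were 0 for HDW in WT cells and for genotype unwounded, 1 higher (a DE gene) and 1 lower remained for genotype after HDW, and 0 were past the test for the interaction. DE genes over all then numbered 371 and 40 for HDW in WT and GCN2KO cells, 1630 and 1328 for genotype and 280 for the interaction, against 640, 106, 2521, 2368 and 547 as reported. For HDW in GCN2KO cells 3586 genes passed the test as reported, 5576 with all 20 libraries in 1 fit and 2070 to 4517 with 1 library left out (lowest without GCN2KO HDW replicate 3). In the same comparison leaving out 1 library moved KLK6 between -0.021 and 0.087 and SPINK5 between -0.21 and 0.011, and for the interaction SPINK5 between -0.050 and 0.17, none past the test. The causes of these changes were not tested.

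Replicate numbers do not pair the samples: the mean correlation of same-numbered libraries was -0.11 to 0.03 over the 4 comparisons. With the number as a replicate block KLK10 passed the test for genotype unwounded (0.75, adjusted p = 0.0318), 2121 genes passed for HDW in GCN2KO cells, and no other call of a member changed. Depth limits the 6 members left out by the filter, and KLK5 and KLK6 in WT cells.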
